A study of Mus musculus with 8 samples.

Results

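Mouse embryonic stem cells lacking lncSmad7 were compared with wild-type cells labelled as the same line. lncSmad7 is a long noncoding RNA named after the neighbouring gene for the signalling inhibitor Smad7. The gene families that differed on the autosomes are described. The 4 libraries compared were chosen by their labels, out of 8 samples in the series: 2 of wild-type E14 cells and 2 of lncSmad7-/- E14 cells. E14 is an embryonic stem cell line of mouse strain 129/Ola. Both groups were labelled untreated, and both grew on gelatin in medium with serum and LIF, the cytokine that holds these cells in self-renewal. A further 2 libraries, of lncSmad7-/- cells labelled Smad7 transfected, entered the fit only to share its estimate of the spread. The sources used here do not say how the deletion was made or whether the knockout is 1 clone or several. Replicates are called biological, but nothing says that they came from separate cultures, and the p-values below therefore reflect a spread between libraries that could be technical.

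Embryonic stem cells build few differentiated products and spend much of their transcription on ribosomes, mitochondria and cell division. Myc family factors are known drivers of that biosynthetic output, while TFEB, a factor that mTORC1 keeps out of the nucleus, is known to switch on lysosome genes, and HIF factors, which oxygen-dependent hydroxylases mark for destruction, are known to switch on genes for glycolysis and oxygen supply. Serum-grown cultures also hold a few cells that drift towards primitive endoderm, the lineage of the yolk sac. In bulk libraries such as these, fewer cells of a type and less RNA per cell cannot be told apart.

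The libraries were similar in depth, with 19260386 and 20209760 counts in wild type and 20159897 and 19455030 in the knockout. The 8 stem cell markers examined were all measured, and summed to 4845 and 4922 CPM (counts relative to the library's size with TMM scaling, the unit of every level below) in wild type and to 6574 and 6669 in the knockout. Of 6 markers of 2-cell-like cells none was measured, and of 8 fibroblast markers 3 were, with Fn1 giving most of their sum of 966 and 949 CPM against 1118 and 1065, and 4 at 0 in the knockout and 0 of the 8 at 0 in both wild-type libraries. A wider list of fibroblast and feeder cell genes had 6 of its 7 measured members higher in the knockout and 0 lower, with a median log2 fold (knockout over wild type) of 0.58, and summed to 1256 and 1234 CPM in wild type and 1520 and 1460 in the knockout. The part of such cells in the results below was not tested. The lncSmad7 feature itself stood at 13.98 and 12.4 CPM in wild type and at 7.14 and 5.52 in the knockout, a log2 fold of −1.05 (SE 0.12, adjusted p = 3.0e-14). The sources used here do not place it inside or outside the deletion. The sex chromosomes differed between the groups. Of 631 X-linked genes tested 428 were higher in the knockout and 67 lower, with a median log2 fold of 0.87, and of 6 Y-linked genes 4 were lower and 0 higher, with a median of −3.77. For every result below, the effect of losing lncSmad7 and any further difference between the cell lines cannot be told apart, and the families that follow are counted over autosomal members only.

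Differences were broad. By edgeR's quasi-likelihood test with Benjamini-Hochberg adjustment at 0.05, 67.6% of the 16324 autosomal genes tested passed, 5442 higher in the knockout (33.3%) and 5595 lower (34.3%). The median log2 fold (knockout over wild type) over all of them was 0.00. Among them 2145 genes (13.1%) were higher and 1444 (8.85%) lower by a log2 fold of 1 or more. The knockout libraries lay wholly above or wholly below the wild-type libraries for 82.5% of genes, and did so for every gene named below. A family is therefore described by how far its counts depart from these shares, and is said to have a direction only where more than 50% of its measured members, and at least 5 of them in all, passed one way and these were at least 2 times as many as passed the other way. By that rule 41 families and programmes had a direction, and 4 kept one when the test asked for a fold beyond 1.5 (lysosome biogenesis, cathepsins and hydrolases, hypoxia-induced genes, and primitive and visceral endoderm). The lists of members were drawn up with earlier results of these data known, so their counts are descriptions. Lists overlap in part, with Bnip3, Egln3, Slc2a1 and Slc2a3 among the shared genes, so they are not separate observations.

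**Figure D1:**
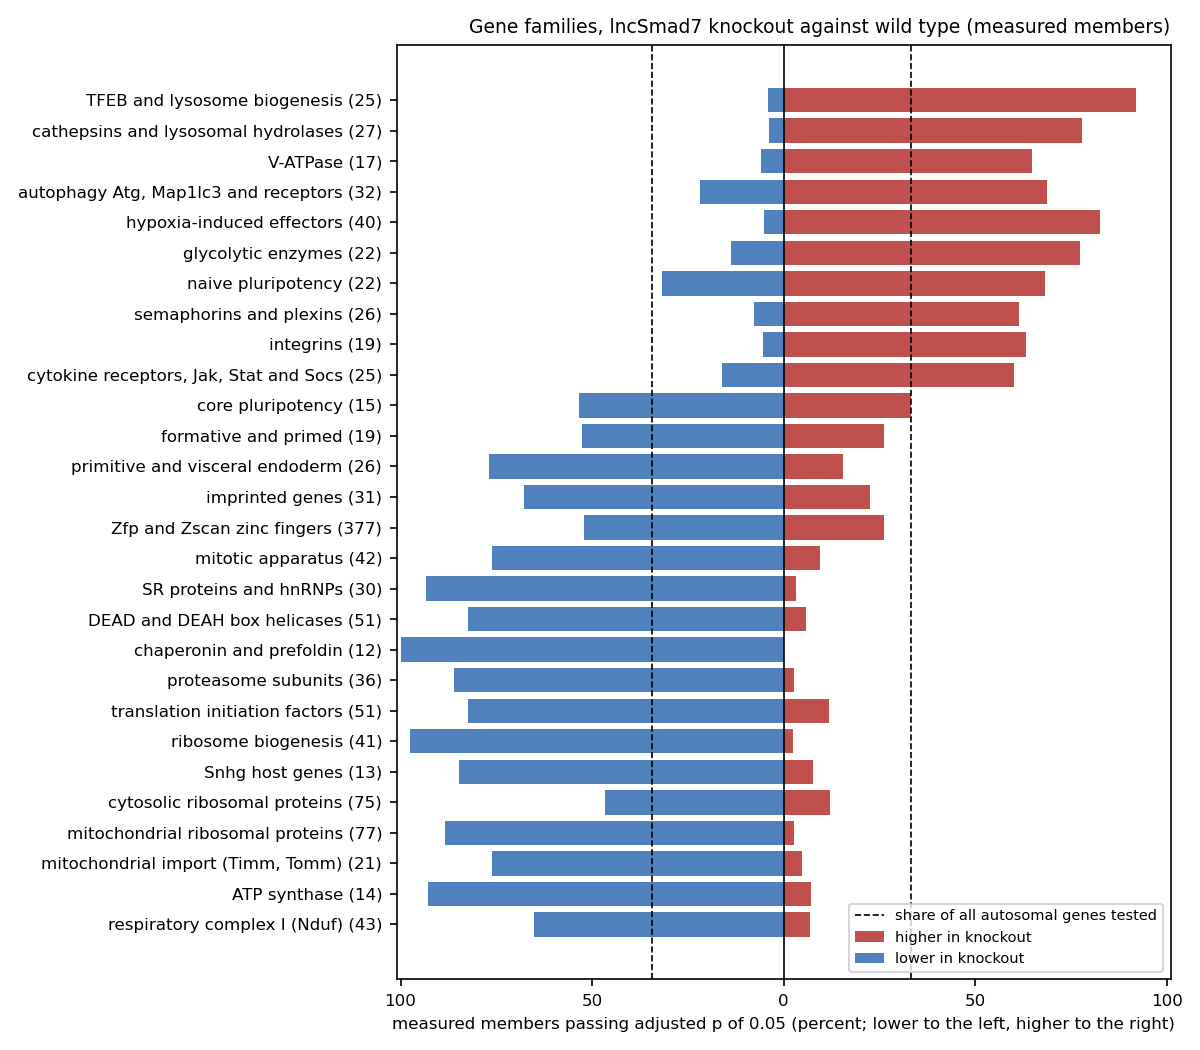
Each bar gives the percent of a family's measured autosomal members that passed the test as higher in the knockout (red, to the right) or lower (blue, to the left), with the number measured in brackets. Dashed lines mark the shares over all autosomal genes tested, 33.3% higher and 34.3% lower; lysosome and hypoxia genes reach far past the line on the right, and ribosome biogenesis, chaperonin and splicing genes on the left.

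The lysosome programme was higher across nearly its whole list. Of 25 measured genes for TFEB, its mTORC1 regulators and its lysosomal targets, 23 rose and 1 fell, with a median log2 fold of 0.94, and 11 of those that rose did so by a log2 fold of at least 1. A list of cathepsins and lysosomal hydrolases, which shares 10 measured genes with the first, gave 21 of 27 higher and 1 lower, with a median of 0.75. Letters that TFEB and its relatives are known to bind were looked for in the 250 bases upstream of each start site in RefSeq's promoter windows (GRCm38.p6), among genes with a single window. The hexamer CACGTG, which reads the same on both strands, was found in 7 of 18 lysosome biogenesis genes (38.9%), 7 of 18 cathepsin and hydrolase genes (38.9%), 3 of 34 ribosome biogenesis genes (8.82%) and 708 of all 8404 autosomal protein-coding genes tested (8.43%). A match is a description of the letters, not a site of binding. Lysosome biogenesis genes were listed as TFEB, its regulators and its known targets, so their share describes the list, not the knockout. The cathepsin and hydrolase list shares members with it, so its share is not a separate observation. Shown next are 100 bases, 5′ to 3′ on the gene's strand with the hexamer in capitals, for the 3 members with the largest rises whose match lay upstream of the gene's start in both RefSeq and GENCODE: Mcoln1 at chr8:3500357-3500456 (plus strand), Rragc at chr4:123917271-123917370 (plus strand) and Lamp1 at chr8:13159061-13159160 (plus strand).
Mcoln1: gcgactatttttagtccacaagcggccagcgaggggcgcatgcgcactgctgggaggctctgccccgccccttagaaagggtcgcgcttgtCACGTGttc
Rragc: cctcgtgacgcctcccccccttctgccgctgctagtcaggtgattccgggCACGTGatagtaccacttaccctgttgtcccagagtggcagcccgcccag
Lamp1: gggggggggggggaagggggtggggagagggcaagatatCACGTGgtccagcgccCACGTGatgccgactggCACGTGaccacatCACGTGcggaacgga
The Lamp1 stretch holds 4 copies, and the Mcoln1 and Rragc stretches 1 each.

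Regulators came first in the list. Tfeb, the factor itself, stood at 33.4 and 31.4 CPM in wild type and 71.9 and 73.6 in the knockout, a log2 fold of 1.17. Rragc, a GTPase that recruits mTORC1 to the lysosome, went from 56.5 and 57.9 CPM to 128.5 and 120.3 (1.12). Both genes were more than doubled in level in both knockout libraries. Mcoln1, the lysosomal calcium channel, went from 27.8 and 30.5 CPM to 87.1 and 92.4 (1.62, SE 0.057, adjusted p = 4.4e-60). The only member that fell was Fnip1, a partner of folliculin in amino acid sensing, from 83.9 and 81.7 CPM to 60.9 and 56.2 (−0.50), and with offsets for GC content and transcript length its sign turned to 0.18.

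Next came enzymes of lysosomal breakdown and a membrane protein. Naglu, which removes sugar residues from heparan sulfate, had the largest fold of the list, from 0.885 and 0.559 CPM to 7.49 and 8.94 (3.50, SE 0.22, adjusted p = 4.0e-32). Neu1, which removes sialic acid, rose by 1.56. Ctsd, an aspartic protease, stood at 91.1 and 88.7 CPM in wild type and at 167 and 179 in the knockout (0.95). The cysteine protease Ctsl rose by 0.64 and the acid lipase Lipa by 1.35. Ctsw, a cathepsin best known from cytotoxic lymphocytes, was the member of the second list that fell, from 4.07 and 3.41 CPM to 1.78 and 1.89 (−1.02). Lamp1, the abundant lysosomal membrane glycoprotein, went from 656 and 659 CPM to 1033 in both knockout libraries (0.65). The standard errors of the named lysosomal genes lay between 0.034 and 0.38.

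The proton pump and autophagy genes had smaller medians. Of the genes named here, Atp6v0d1, Sqstm1 and Wipi1 are also in the lysosome biogenesis list. Of 17 measured subunits of the V-ATPase, which acidifies the lysosome, 11 rose and 1 fell, with a median of 0.29, a direction that was lost without the filter on low counts. Atp6v0d1 rose from 102 and 105 CPM to 216 and 215 (1.06) and Atp6v1b2 by 0.31, while the call on Atp6v1g2, which fell at about 1 CPM (−0.83), was lost without any 1 of the 4 libraries. Among 32 autophagy genes 22 rose and 7 fell, with a median of 0.27. Sqstm1, the cargo receptor p62, went from 166 and 169 CPM to 321 and 322 (0.94), and Wipi1, which binds the growing autophagosome membrane, rose by 1.88 and the initiating kinase Ulk2 by 1.51. With GC and length offsets the autophagy list had 16 higher and 10 lower and no longer had a direction.

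Genes known to be induced in low oxygen gave the largest median of any rising list. Of 40 measured hypoxia-induced genes 33 rose and 2 fell, with a median log2 fold of 1.61, and 25 rose by a log2 fold of at least 1. The pentamer ACGTG, the core of the element that HIF factors are known to bind, was searched for on both strands, and every CACGTG holds it on each. It was found upstream of 15 of 23 hypoxia-induced genes with a single promoter window (65.2%) and 9 of 18 lysosome biogenesis genes. Among glycolytic genes it was found in 3 of 14 (21.4%), and among all 8404 genes in 1826 (21.7%). The hypoxia-induced genes were listed as known responders to low oxygen, so their share describes the list, not the knockout. Stretches of 100 bases are shown for the 3 members with the largest rises that hold a match upstream of both annotated starts, with matches on either strand in capitals: Bhlhe41 at chr6:145865559-145865658, Bnip3 at chr7:138909564-138909663 and Egln3 at chr12:54204025-54204124, all on the minus strand of GRCm38.p6.
Bhlhe41: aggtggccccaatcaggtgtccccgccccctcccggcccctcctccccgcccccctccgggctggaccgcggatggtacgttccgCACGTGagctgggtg
Bnip3: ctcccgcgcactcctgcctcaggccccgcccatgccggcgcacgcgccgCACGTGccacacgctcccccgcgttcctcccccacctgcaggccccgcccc
Egln3: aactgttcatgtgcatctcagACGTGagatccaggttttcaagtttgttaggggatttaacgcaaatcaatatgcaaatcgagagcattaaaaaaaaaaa
In the first and second stretch the pentamer is found on both strands within 1 hexamer, and in the third on the strand shown.

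Bnip3, a receptor that marks mitochondria for autophagy, went from 4.72 and 4.64 CPM in wild type to 51.3 and 49.1 in the knockout, a log2 fold of 3.42 (SE 0.093, adjusted p = 2.1e-73). Egln3, a prolyl hydroxylase that acts on HIF and is itself a known HIF target, went from 3.13 and 3.30 CPM to 32.4 and 35.9 (3.41), and the related hydroxylase Egln1 from 23.0 and 21.3 to 81.4 and 78.9 (1.86). All of these were raised several-fold in both knockout libraries over both wild-type libraries. Vegfa, the growth factor for blood vessels, went from 10.2 and 8.72 CPM to 51.1 and 54.7 (2.48). Ndrg1 rose by 2.30, the secreted hormone Stc2 by 2.80 and the collagen prolyl hydroxylase P4ha1 by 1.77. The repressors Bhlhe40 and Bhlhe41, which also act on the circadian clock, rose by 3.27 and 4.41. The 2 members that fell were Jmjd6 (−0.81) and Plod1, a lysyl hydroxylase of collagen (−0.34).

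Of 13 HIF subunits and oxygen sensors 7 rose and 3 fell, with a median of 0.26 and a direction by the rule, although the main HIF alpha subunits fell. Hif1a fell from 191 and 180 CPM to 132 and 118 (log2 fold −0.57; −0.20 with GC and length offsets), and Epas1, which encodes HIF-2 alpha, fell by 0.33 on the log2 scale. Arnt2, a dimer partner of HIF, rose from 6.25 and 6.04 CPM to 19.98 and 21.5 (1.75).

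Glycolytic enzymes rose, with exceptions at single isoforms. Of 22 glycolytic enzymes 17 rose and 3 fell, with a median log2 fold of 0.61. Of 17 glucose and monocarboxylate transporters 9 rose and 3 fell, with a median of 1.06, a direction that was lost by DESeq2, without the filter on low counts, with GC and length offsets and without any 1 of the 4 libraries. The glucose transporters Slc2a1 and Slc2a3 went from 253 and 252 to 968 and 973 CPM and from 969 and 948 to 2842 and 2792 CPM (log2 folds 1.94 and 1.55). Slc16a3, which exports lactate, went from 62.8 and 66.6 CPM to 227 in both knockout libraries (1.81). Among enzymes in pathway order, Pgm1, which links glycogen to glycolysis, rose most, from 10.3 and 11.0 CPM to 89.0 and 91.4 (3.08). The phosphofructokinase subunit Pfkl rose by 1.56, triose phosphate isomerase Tpi1 by 1.59, pyruvate kinase Pkm by 0.42 and lactate dehydrogenase Ldha by 0.88. The 3 that fell were the muscle-type phosphofructokinase Pfkm (−0.52), hexokinase Hk2 (−0.20, not called under library size scaling) and the muscle enolase Eno3.

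The enolase isoforms differed in direction. Eno1, the ubiquitous form, rose from 778 CPM in both wild-type libraries to 1190 and 1195 (0.62), the neuronal form Eno2 from 3.95 and 3.35 to 16.4 and 16.9 (2.19), and Eno3 fell from 33.3 and 34.2 to 6.93 and 6.26 (−2.35). Enzymes of the citrate cycle and pyruvate entry went the other way from glycolysis, with 17 of 27 lower and 5 higher and a median of −0.14, but that direction was lost under library size scaling. Suclg2, a subunit of succinate CoA ligase, fell by 1.10 on the log2 scale. Idh2, the mitochondrial isocitrate dehydrogenase, rose from 52.6 and 53.8 CPM to 178 and 186 (1.77), and Pcx, pyruvate carboxylase, by 1.56.

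**Figure D2:**
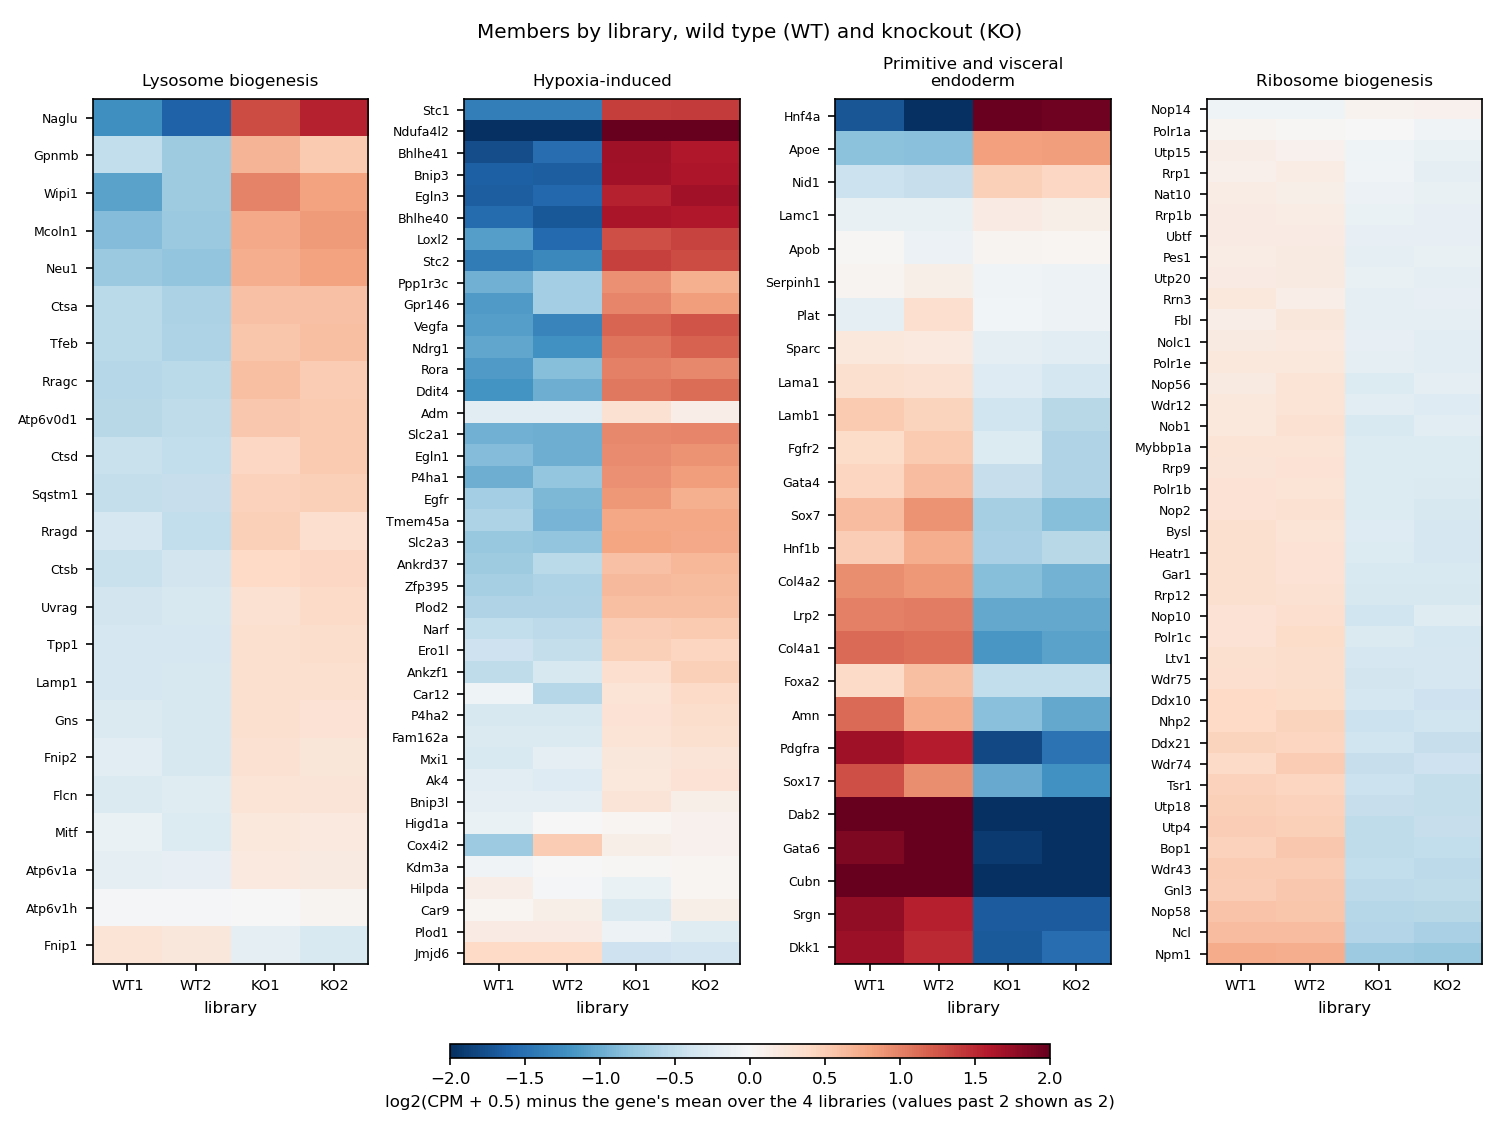
Each row is 1 measured member of a list (not every member is drawn), each column 1 library, and the colour gives log2(CPM + 0.5) minus that gene's mean over the 4 libraries, ordered by fold. Replicates share their colour in most rows; 23 of 25 lysosome and 33 of 40 hypoxia genes passed as higher in the knockout, and 20 of 26 endoderm and 40 of 41 ribosome biogenesis genes as lower.

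Genes for making ribosomes were lower almost throughout the list. Of 41 genes for ribosome biogenesis 40 fell and 1 rose, with a median log2 fold of −0.60. The nucleolar proteins Npm1 and Ncl went from 6053 and 6012 to 2188 and 2150 CPM (−1.48) and from 5972 and 5951 to 2592 and 2484 CPM (−1.23). Nop58, a core protein of the box C/D particles that methylate ribosomal RNA, went from 822 and 816 CPM to 374 and 379 (−1.12). Gnl3, also called nucleostemin (−1.04), the small-subunit processome member Wdr43 (−1.02), the RNA helicase Ddx21 (−0.86) and Mybbp1a (−0.54) also fell. The exception was Nop14, which rose from 212 CPM in both wild-type libraries to 235 and 237 (0.16) and was not called by DESeq2 or with GC and length offsets.

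Small nucleolar RNAs, some of which guide the methylation of ribosomal RNA, were lower as well. Of 151 measured snoRNA genes 104 were lower and 6 higher, with a median of −0.89, although poly(A) selection recovers such short RNAs poorly and reads over a snoRNA may come from its host transcript. Of 13 Snhg genes, whose introns hold snoRNAs, 11 fell and 1 rose, with a median of −0.51. Snhg12 went from 63.9 and 69.1 CPM to 21.0 and 23.2 (−1.59), and Snhg5 (−1.14) and Snhg14 (−2.17) fell too. The exception, Snhg18, was at about 1 CPM and was not called without the first wild-type or without the second knockout library. Snhg14 is rich in A and T, and its fold was −0.82 with the offsets.

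Genes for ribosomal proteins themselves had a median near 0, and their balance depended on the scaling and on the model. Of 75 cytosolic ribosomal protein genes 35 were lower and 9 higher, with a median of −0.07 and no direction by the rule. The counts were 33 higher and 13 lower (median 0.07) under library size scaling, and 3 higher and 47 lower under RLE scaling, 2 and 44 by DESeq2 and 12 and 38 with the offsets, of which the last 3 meet the rule for lower. A replicate block gave 10 higher and 42 lower at an unchanged median of −0.07, which meets the rule too. Together these genes took 4.52% and 4.71% of wild-type counts and 4.73% and 4.99% of knockout counts. Many of these genes have near-identical pseudogene copies, and the sources used here do not say how reads shared between copies were counted. Translation initiation factors, in contrast, were lower in 42 of 51 cases and higher in 6, with a median of −0.47. Eif1a went from 413 and 408 CPM to 168 and 158 (−1.33), Eif2s2 (−1.18) and Eif5b (−0.99) fell, and Eif3a, the scaffold of the eIF3 complex, went from 1523 and 1489 CPM to 863 and 808 (−0.85). A pair of kinases that phosphorylate eIF2 in stress were among those that rose, Eif2ak3 by 0.72 and Eif2ak4 by 0.87. All 12 chaperonin and prefoldin genes, whose products fold newly made actin and tubulin, fell, with a median of −0.43. Cct5 had −0.58 and Pfdn4 −1.04, the latter −0.17 with the offsets.

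Genes for mitochondrial protein synthesis and import were lower too. Of 77 mitochondrial ribosomal protein genes 68 fell and 2 rose, with a median log2 fold of −0.41. Mrpl12 went from 221 and 216 CPM to 95.6 and 103 (−1.14) and Mrpl47 from 64.5 and 64.1 to 26.6 in both libraries (−1.27), whereas Mrps2 and Mrpl17 rose by 0.34 and 0.26. Of 21 genes of the Tim and Tom import complexes 16 fell and 1 rose (median −0.45), with Tomm22 at −0.94 and Tomm5 at −0.96. The nuclear genes of the respiratory chain fell by less. Complex I had 28 of 43 lower and 3 higher (median −0.21), complexes II to IV 18 of 27 lower and 2 higher (−0.22) and ATP synthase 13 of 14 lower and 1 higher (−0.41). Atp5g1 went from 185 and 199 CPM to 93.7 and 98.4. These last 3 directions were lost under library size scaling, which shifts the median of all autosomal genes by 0.14. Transcripts of the mitochondrial genome made up 1.58% and 1.53% of wild-type counts and 1.40% and 1.37% of knockout counts.

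Proteasome genes fell. Of 36 measured proteasome genes 31 fell and 1 rose, with a median log2 fold of −0.36. Psmc6, an ATPase of the 19S cap, went from 327 and 331 CPM to 118 and 120.3 (−1.46; −0.47 with the offsets), and Psmc5, another, from 369 and 386 to 170.1 and 168 (−1.16). Psmb10, a catalytic subunit of the immunoproteasome, fell from 64.6 and 63.1 CPM to 19.2 and 18.4 (−1.77). The 1 gene that rose was Psma8, known as the testis form of an alpha subunit, from 11.6 and 10.4 CPM to 32.5 and 29.2 (1.49).

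Splicing factors and RNA helicases were lower nearly throughout. Of 30 SR protein and hnRNP genes 28 fell and 1 rose, with a median of −0.52, and of 51 DEAD and DEAH box helicases 42 fell and 3 rose, with a median of −0.33. Hnrnph1 went from 899 and 908 CPM to 304 and 298 (−1.58; −0.71 with the offsets). Hnrnpu, a nuclear matrix protein, went from 2742 and 2616 CPM to 1634 and 1546 (−0.75). The splicing regulators Srsf10 (−1.34) and Srsf3 (−0.91) and the spliceosomal helicases Ddx46 (−0.89) and Dhx15 (−0.71) fell as well.

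Cell division genes were lower in the mitotic list but not in every related one. Of 42 genes of the mitotic apparatus 32 fell and 4 rose, with a median log2 fold of −0.34. Knl1, a scaffold of the kinetochore, went from 213 and 206 CPM to 34.4 and 34.6 (−2.60), and Cenpf, which couples kinetochores to microtubules, from 413 and 397 to 61.6 and 57.8 (−2.76). The condensin subunits Smc2 and Smc4 went from 442 and 432 to 112 and 102 CPM (−2.03) and from 512 to 129.7 and 127.5 CPM (−1.99). With GC and length offsets Smc2 had −1.44, Smc4 −1.45 and Knl1 −1.78. The spindle motor Kif11 (−0.77) and topoisomerase Top2a (−0.49) fell, while cyclin Ccnb2 rose by 0.23. Centromere proteins had 13 of 20 lower and 3 higher (median −0.37), a direction lost under library size scaling. Kinesins (15 of 38 higher and 10 lower) and G1 cyclins, kinases and inhibitors (15 of 29 higher and 8 lower) had no direction. Both were higher by the rule under library size scaling. The G1 list was so too with TMM factors from autosomal genes, without the filter on low counts and in a fit of the 4 libraries alone. Genes for DNA replication and nucleotide supply moved less, with 19 of 33 lower and 7 higher (median −0.14), a direction that was lost under library size scaling.

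Primitive and visceral endoderm genes gave the largest median of the falling lists. Of 26 measured genes 20 fell and 4 rose, with a median log2 fold of −1.76, and 16 of those that fell did so by a log2 fold of at least 1. Among the factors that specify the lineage, Gata6 went from 9.85 and 11.2 CPM to 0.255 and 0.210 (−5.46, SE 0.26, adjusted p = 3.1e-44). Sox17 went from 3.24 and 2.40 CPM to 0.255 and 0.158 (−3.72), and Gata4 from 7.61 and 8.72 to 3.87 and 3.47 (−1.15). These 3 were low in wild type already, and Gata6 and Sox17 were close to absent in both knockout libraries. The receptors and adaptors of the endoderm's uptake machinery fell with them. Cubn went from 34.6 and 29.2 CPM to 0.510 and 0.578 (−5.85), Dab2 from 30.7 and 29.3 to 0.867 and 0.684 (−5.26) and Lrp2, or megalin, from 154 and 156 to 37.4 in both libraries (−2.05). Pdgfra, a growth factor receptor used as a surface marker of the lineage, fell from 17.2 and 15.8 CPM to 1.07 and 1.47 (−3.69).

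Basement membrane genes of the same list were split. The collagen IV chains Col4a1 and Col4a2 went from 142 and 140 to 28.8 and 30.4 CPM (−2.25) and from 59.98 and 56.9 to 17.1 and 15.8 CPM (−1.83), and laminin Lama1 fell by 0.61 on the log2 scale. Nid1, the nidogen that links laminin to collagen IV, rose by 0.89. Hnf4a, a nuclear receptor of the visceral endoderm, went from 1.83 and 1.12 CPM to 29.5 and 28.8 (4.31), and Apoe, an apolipoprotein made by that tissue, from 342 and 340 to 1072 and 1079 (1.66). The summed level of 9 primitive endoderm markers was 467 and 458 CPM in wild type and 267 and 257 in the knockout. The sum over all 26 measured genes of the list, Apoe included, went the other way, from 2048 and 2027 CPM to 2475 and 2437. The part that the number of such cells plays in these values was not tested.

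Genes of naive pluripotency were higher on balance. Of 22 measured 15 rose and 7 fell, with a median of 0.46. Klf2, a factor of the naive network, went from 186 and 177 CPM to 622 and 633 (1.79), Tcl1 from 46.5 and 47.5 to 161 and 170.2 (1.81) and Prdm14, which restrains FGF signalling and DNA methylation, from 27.8 and 30.0 to 72.0 and 71.5 (1.31). Esrrb rose by 0.52. Dppa3, or Stella, went from 2.48 and 2.12 CPM to 0.510 and 0.473 (−2.21), and Gbx2 fell by 0.57 on the log2 scale. The 3 factors at the core of the network rose, Pou5f1 by 0.17, Sox2 by 0.49 and Nanog by 0.47. The wider core list was mixed, with 5 of 15 higher and 8 lower. Its falls included the RNA-binding proteins Lin28a, from 372 and 371 CPM to 185 and 176 (−1.04), and L1td1, from 1659 and 1662 to 710 and 707 (−1.23), and the repressor Zfp281 (−1.43), while the Nodal coreceptor Tdgf1 rose by 0.87.

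Of 19 genes of the formative and primed states 10 fell and 5 rose, with a median of −0.19. That direction was lost under library size scaling, TMM factors from autosomal genes, DESeq2 and a fit of the 4 libraries alone, and also without the first wild-type library or without either knockout library. Dnmt3a, a de novo DNA methyltransferase, went from 345 and 322 CPM to 63.2 and 65.1 (−2.38). Lin28b (−1.31) and Etv4 (−1.19) fell, and Otx2 rose by 0.80.

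Within the Myc network the activator fell and several of its antagonists rose. Myc went from 117.3 and 116.6 CPM to 22.5 and 22.0 (−2.39, SE 0.058, adjusted p = 1.7e-80), while Mycn went from 126 and 118 to 102 and 97.7 (−0.29). Mxd1 and Mxd4, which compete with Myc for its partner Max, rose by 1.05 and 1.67, and Mnt, another repressor that binds Max, by 0.62. Mga, which pairs with Max in a Polycomb complex, fell from 625 and 616 CPM to 323 and 320 (−0.95). In all, 7 of 13 members rose and 4 fell, with no direction by the rule. With GC and length offsets 6 were higher and 5 lower, and under library size scaling 8 were higher and 4 lower.

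Imprinted genes, which are expressed from 1 parental copy in at least some tissues, were lower on balance. Of 31 measured, 21 were lower and 7 higher, with a median log2 fold of −0.47. Peg10, a retrotransposon-derived gene needed in the placenta, went from 20.1 and 17.6 CPM to 0.459 and 0.316 (−5.57, SE 0.21, adjusted p = 2.4e-57). Zdbf2 went from 319 and 286 CPM to 72.0 and 66.0 (−2.13). The ubiquitin ligase gene Ube3a (−2.01; −1.08 with the offsets) and the noncoding Meg3 (−0.89) fell as well. In the other direction Ndn rose from 6.19 and 6.60 CPM to 26.5 and 27.6 (2.08), the growth inhibitor Cdkn1c by 1.21, the receptor Igf2r by 0.89 and Peg3 by 0.80.

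Many zinc finger genes of the Zfp, Zscan and Zkscan symbols encode repressors of retrotransposons. Of 377 measured, 196 were lower and 99 higher, with a median log2 fold of −0.25 and no direction by the rule. With GC and length offsets 195 were lower and 95 higher (median −0.24), which meets the rule for lower. The family met it under RLE scaling too, but not under library size scaling or by DESeq2. Its members by chromosome are given next as counts and medians, with no test of the difference between chromosomes. On chromosome 4, 19 of 28 were lower, 18 of them by a log2 fold of at least 1, with a median of −1.93, against a median of 0.08 for the other tested genes of that chromosome. On chromosome 17, 37 of 47 were lower, with a median of −1.05 against 0.12. On chromosome 7, which holds the most of them, 38 of 95 were higher and 32 lower, with a median of 0.09. These genes stand in clusters of close copies and are rich in A and T, with a median GC content of 39.0% on chromosome 4 and 39.6% on chromosome 17. With GC and length offsets the medians were −0.89 and −0.49, and reads that fit several copies make single members uncertain. Among single genes Zfp991 on chromosome 4 went from 5.25 and 5.37 CPM to 0.968 and 0.578 (−2.76), and Zfp951 on chromosome 5 from 5.31 and 5.87 to 0.459 and 0.210 (−4.03). Zfp42, the stem cell marker Rex1 on chromosome 8, rose by 0.33.

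**Figure D3:**
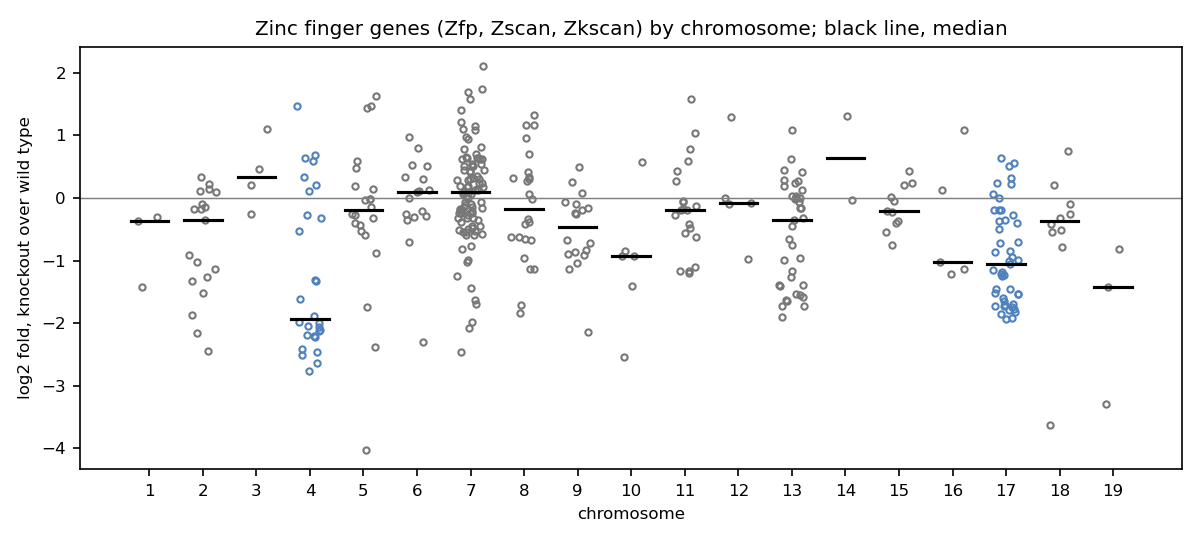
Each circle is 1 measured zinc finger gene at its log2 fold, knockout over wild type, spread sideways by chromosome, and black lines give medians. Chromosomes 4 and 17 (blue) have medians of −1.93 and −1.05, while chromosome 7 has 0.09.

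Base composition moved with the fold over all genes and is given here because it touches several of these lists. Autosomal protein-coding genes were split into 5 equal bins by the GC content of their longest transcript. The lowest bin, with 31.0% to 44.3% GC, had a median log2 fold of −0.38, with 18.3% of genes higher and 59.96% lower, and the highest bin, from 56.03% GC, had 0.21. With per-library offsets for GC content and length these medians were −0.01 and −0.03. Bins by transcript length differed less, from −0.05 to 0.08. With the same offsets lysosome biogenesis had a median of 0.76 (25 of 25 higher), hypoxia-induced genes 1.498, ribosome biogenesis −0.68 (39 lower and 0 higher) and endoderm genes −1.99, so these 4 lists kept their directions and most of their size. The part that base composition plays in single low-GC genes was not tested beyond the offsets.

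**Figure D4:**
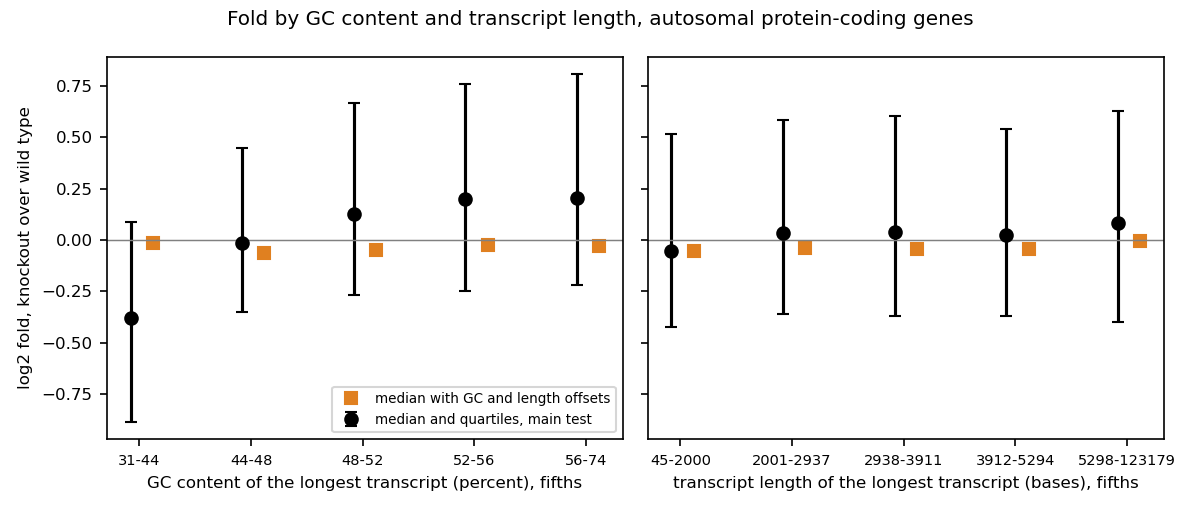
Points give the median log2 fold, knockout over wild type, of autosomal protein-coding genes in 5 equal bins of GC content (left) and transcript length (right), with bars from the first to the last quartile; orange squares give the median with per-library offsets. The median climbs from −0.38 to 0.21 with GC content and stays near 0 with the offsets.

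Among surface and adhesion families, semaphorins with plexins and integrins had a direction. The next 3 families had none. Cadherins and protocadherins had 9 of 38 higher and 10 lower, claudins 4 of 10 higher and 2 lower, and Eph receptors and ephrins 8 of 16 higher and 4 lower. Of 26 semaphorins and plexins, the guidance cues and their receptors, 16 rose and 2 fell, with a median log2 fold of 0.52, a direction that DESeq2 did not give. Nrp2, the semaphorin coreceptor, went from 17.7 and 18.3 CPM to 139.7 and 134.7 (2.93). Plxna1 rose by 0.65, Sema4b by 0.49 and Sema4g by 1.71, while Sema6a and Sema3f fell from below 5 CPM (−3.30 and −1.55). Of 19 integrins 12 rose and 1 fell (median 0.56), a direction lost without the filter on low counts, without the second wild-type library and without either knockout library, with the vitronectin receptor chains Itgav and Itgb5 higher by 0.98 and 0.78, Itgb4 by 0.99, and the laminin receptor chain Itga3 lower, from 59.6 and 57.1 CPM to 27.5 and 27.1 (−1.09). Collagens split, with 13 of 28 higher and 6 lower. Col9a2, a cartilage collagen, went from 2.24 CPM in both wild-type libraries to 22.5 and 21.3 (3.29) and Col18a1 rose by 0.69, against the falls of the collagen IV chains above.

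Signalling genes close to the culture's own cues were mixed. Of 25 cytokine receptors, Jak, Stat and Socs genes 15 rose and 4 fell, with a median of 0.53, a direction lost without the filter on low counts. The LIF receptor gene Lifr, however, fell from 201 and 188 CPM to 124 and 115 (−0.70), as did Stat3, which carries the LIF signal (−0.28). Stat6 rose from 36.8 and 37.7 CPM to 94.2 and 95.4 (1.35), Stat5a by 1.80, Jak1 by 0.73 and the feedback inhibitor Socs3 by 0.53, while Socs4 fell (−1.11; −0.37 with the offsets). TGF-beta superfamily receptors and Smads had no direction, with 5 of 19 higher and 7 lower and a median of 0.05. Smad3, an effector of activin and TGF-beta, went from 10.7 and 10.3 CPM to 33.1 in both libraries (1.66), and the activin receptor Acvr1b rose by 1.06, while the BMP receptor Bmpr2 fell from 65.0 and 61.8 CPM to 21.7 and 18.6 (−1.65). Id1, a known BMP target, fell by 0.96 on the log2 scale. The list of BMP and Smad targets that holds Id1 had 4 of 15 higher and 6 lower, with no direction. By a log2 fold of at least 1, 4 of them rose and 0 fell. With the offsets 4 were higher and 8 lower, which meets the rule for lower. Smad7 went from 97.6 and 97.7 CPM to 75.5 and 69.6 (−0.43), and Ep300, the acetyltransferase p300 named in the title of the series, from 325 and 297 to 239 and 233 (−0.40).

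The largest single changes among well-expressed protein-coding autosomal genes, those with a mean of at least 20 CPM, came from many families. Rises of the top 10 ranged from 2.81 to 4.12 on the log2 scale. They were led by Grin1, an NMDA receptor subunit, from 2.06 and 2.46 CPM to 39.5 and 39.8 (4.12, SE 0.12, adjusted p = 7.2e-71), by Sohlh2, a germ cell factor, from 4.48 and 6.09 to 81.8 and 85.0 (3.97), and by the water and glycerol channel Aqp3, from 7.73 and 7.60 to 83.2 and 85.9 (3.46). Bnip3, Bhlhe40, Pgm1 and Nrp2 from the lists above were among them, with the atypical cyclin Ccng2 (3.19), the epoxide hydrolase Ephx1 (3.08) and the Notch regulator Dtx1 (2.81). The 10 greatest falls ranged from −3.30 to −2.60: Zfp518a, Gm14124, the actin-binding Ccdc88a, Cenpf, the phosphatase Ptpn4, Phip, Arhgap5, Zfp292, Gm17067 and Knl1. The 10 genes that fell most had GC contents from 33.9% to 43.3%, within the lowest of the 5 bins, and a median transcript length of 9350 bases, and with the offsets their folds ranged from −2.60 to −1.49. The 10 that rose most had a median GC content of 50.4%, close to that of all genes, 50.3%, and folds of 2.42 to 3.90 with the offsets.

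**Figure D5:**
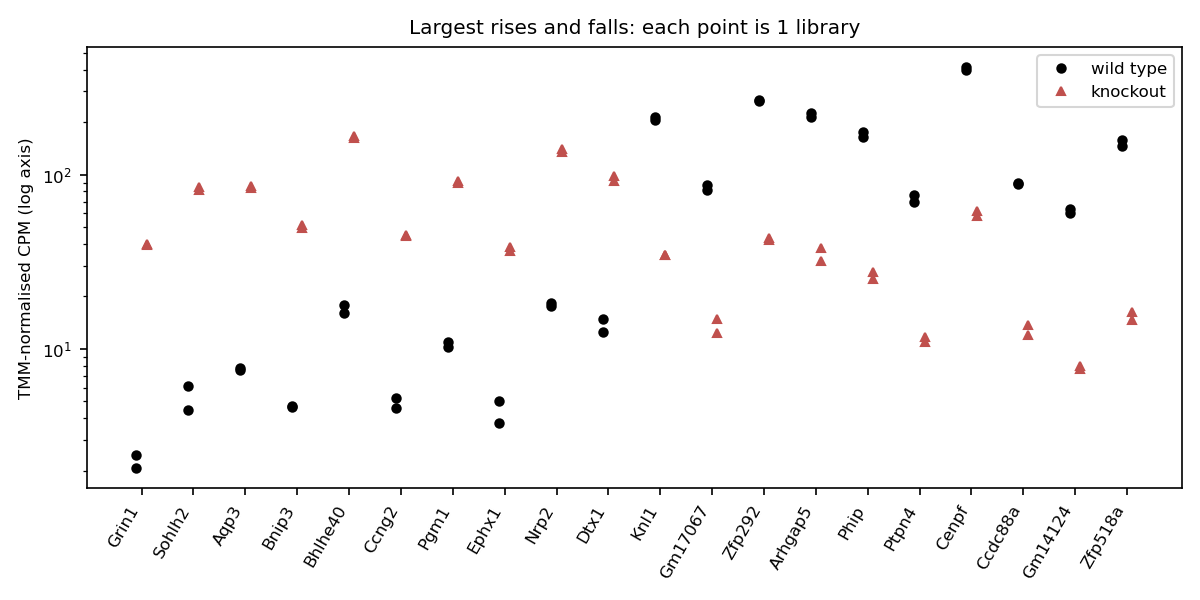
Each point is 1 library at its CPM on a log axis, black circles wild type and red triangles knockout, for the 10 greatest rises (left) and falls (right) among genes with a mean of at least 20 CPM. Replicates nearly coincide, and the groups are apart for each gene, from 4.12 for Grin1 to −3.30 for Zfp518a on the log2 scale.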

How the data were processed

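The authors deposited raw read counts per gene symbol for 55292 features, made with STAR and featureCounts 1.6.3 per the submitters' processing notes, which name the builds mm10 and GRCm38 without role or order. Poly(A) RNA and the TruSeq RNA kit were used, per the labels' protocols. The annotation, the strand setting and the handling of multi-mapped reads are not stated in the sources used here, and reads of a gene and an overlapping antisense gene cannot be told apart. Columns were matched to samples by name. A further 2 columns matched no sample and were not used, which leaves the lncSmad7-transfected group not analysed here.

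Counts were filtered with filterByExpr (17342 genes tested), scaled with TMM and tested with edgeR's quasi-likelihood test, robust, in R 4.3.3 (edgeR 4.0.16, limma 3.58.1), in 1 fit of 6 libraries and 3 groups with 3 residual degrees of freedom. P-values were adjusted by Benjamini and Hochberg's method over every gene tested, and 0.05 was the threshold. The test was tested on simulated data. The common biological coefficient of variation was 2.47%. Replicates differed by more than sampling noise, with chi-square values of 1.64 (wild type) and 1.81 (knockout) per degree of freedom. CPM values use the TMM factors.

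Families were built from symbol patterns and hand-written lists, all chosen with earlier results of these data known, and the patterns were narrowed after a few binding-protein genes were seen to match them. Genes were named by a rule: in each family up to 6 members with the highest mean CPM, up to 6 with the largest fold among those called and every member against the family's direction; the 10 greatest rises and falls at a mean of at least 20 CPM; and a short list that included Smad7, lncSmad7, Ep300, Pou5f1, Sox2, Nanog and Myc. Not all genes so chosen are printed, some are not reported here, and 6 printed genes outside the rule (Ndrg1, P4ha1, Pdgfra, Rragc, Ube3a and Vegfa) were chosen after their values were seen. Positions, transcript lengths and GC contents came from GENCODE M21 (GRCm38), matched by symbol, with a single position for 53180 symbols and GC content and length for 97.9% of genes tested. Promoter windows came from RefSeq (GRCm38.p6). Alternatives were RLE and library size scaling, TMM factors from autosomal genes, DESeq2 1.42.0, no filter and a 1 CPM filter, the 4 libraries alone, a replicate block, GC and length offsets (mgcv 1.9.3), a test against a fold of 1.5, and each library left out.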

Additional observations from a re-analysis of the deposited data

How the results depend on the processing

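Of 11037 autosomal genes called, 4307 were called against a minimum fold of 1.5 (glmTreat), and 4 of 41 families kept a direction there: lysosome biogenesis, cathepsins and hydrolases, hypoxia-induced genes, and primitive and visceral endoderm. Each other alternative gave between 8973 (DESeq2) and 11113 calls, the latter with a replicate block, though same-numbered libraries did not deviate together (correlation of deviations 0.0057), so the numbers are not taken to pair them; the block changed the call of no named gene, and of the families it took the direction from the formative and primed list alone. Higher genes were 49.3% of calls, and 60.5% under library size scaling, where the medians of the citrate cycle (0.0035) and of DNA replication (0.0012) no longer lay below 0. Without a filter on low counts the median of the fibroblast list turned to −0.11, and with GC and length offsets Fnip1 turned to 0.18. Leaving out 1 library at a time gave 10051 to 10166 calls. With 2 libraries a group, the precision of genes near 1 CPM is limited by counting error.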

Other observations

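Targets of the integrated stress response, the programme that Atf4 drives when amino acids or protein folding fail, were higher in 18 of 26 measured cases and lower in 4, with a median log2 fold of 0.32. Chac1, which degrades glutathione, went from 1.36 and 1.62 CPM to 10.9 and 12.1 (2.94), Gdf15, a stress-induced hormone, from 4.66 and 4.70 to 19.7 and 22.3 (2.16), and the lipoprotein receptor Vldlr from 0.472 and 0.503 to 6.68 and 5.94 (3.68). The serine pathway enzyme Shmt2 rose by 0.85. Asns, asparagine synthetase and a much used reporter of Atf4, fell from 311 CPM in both wild-type libraries to 245 and 247 (−0.34). Aminoacyl-tRNA synthetases, counted as a list of their own, had 6 of 19 higher and 11 lower (median −0.14). Unfolded protein response genes had 8 of 20 higher and 7 lower. Neither list had a direction, though the synthetases met the rule for lower under RLE scaling, by DESeq2 and with the offsets.

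Clock genes were higher in 11 of 20 cases and lower in 4, with a median of 0.44, a direction that was lost with GC and length offsets, RLE scaling, DESeq2 and no filter, and without the second wild-type or the first knockout library. Dbp, an output gene of the clock, rose by 1.77, the repressor Nr1d1 by 1.11 and the activator Arntl by 0.88, while its partner Clock went from 57.6 and 57.1 CPM to 21.5 and 20.1 (−1.46). Transcripts of the TEC class, which await experimental support, had 135 of 448 lower (30.1%) and 52 higher (11.6%). LincRNAs were balanced, with 117 of 476 higher (24.6%) and 118 lower (24.8%). All of these shares lay below those of all autosomal genes tested, 34.3% lower and 33.3% higher.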
